A study of Homo sapiens with 30 samples.

Results

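DHT and enzalutamide were compared in MR49F prostate cancer cells whose BET proteins were inhibited with JQ-1. The comparison was chosen by its sample labels and not by any measured value. It held 6 of the 30 RNA-seq samples of the study, 3 treated with DHT and JQ-1 and 3 with enzalutamide and JQ-1. MR49F is a single line that was derived from LNCaP cells grown in castrated mice under enzalutamide. By the paper's methods the line is routinely grown with enzalutamide at 10 μM. All of these cells were first kept for 96 h in full serum. They were then kept for 72 h in medium with 10% charcoal-stripped serum, which is depleted of steroids, and were treated for 24 h. The first group received 1 nM DHT with 500 nM JQ-1. The second group received 10 μM enzalutamide with 500 nM JQ-1, so the ligands differed in dose as well as in kind. Cells in the same serum that received DHT alone, enzalutamide alone, JQ-1 alone or vehicle, with 3 samples each, were used as the reference. The comparison asks which part of the difference between the ligands remains when BET proteins are inhibited.

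DHT is the most potent natural androgen. Androgens activate genes of prostate secretion, lipid synthesis and protein folding, while other genes are repressed. Enzalutamide is used against prostate cancer because it blocks the androgen response, but MR49F cells grow in its presence. JQ-1 binds the bromodomains of the BET proteins, which read acetylated histones and recruit P-TEFb, the kinase that releases paused RNA polymerase.

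MR49F cells under both treatments carried the defining genes of luminal prostate epithelium. All 8 luminal markers, among them KRT8, KRT18, EPCAM, CDH1, HOXB13 and FOXA1, were at 1 FPKM or more in all 6 samples. FPKM are fragment numbers divided by transcript length and by sequencing depth, a level that can be compared between genes. Of 5 markers each, 4 basal, 4 neuroendocrine, 4 fibroblast and 5 leukocyte markers were below 1 FPKM in all 6 samples. The summed basal level was 1.29 to 1.37 FPKM with DHT and 3.22 to 3.58 FPKM with enzalutamide, nearly all of it from NGFR, and KRT5, KRT14 and TP63 were at 0 in each enzalutamide sample. The summed neuroendocrine level was 7.09 to 7.85 FPKM with DHT and 8.39 to 9.65 FPKM with enzalutamide, nearly all of it from SYP, and their part in the results was not tested. Reads counted on genes numbered 1490223 to 1813262 per sample with DHT and 982130 to 1307374 with enzalutamide. They made up 6.82% to 7.37% of reads with DHT and 6.21% to 6.33% with enzalutamide, ranges that do not overlap, whereas this share was 72.97% to 77.81% in the 12 full-serum samples of the study. Counts in stripped serum also went against FPKM at single loci. SNX22, whose exons overlap those of PPIB on the other strand, averaged 4318 CPM (counts scaled to library size) but 1.86 FPKM, and PPIB averaged 661 CPM and 501 FPKM. The paper describes strand-specific libraries, but whether counting used the strand was not given. What lowered the share of reads on genes was not tested, and all count values below carry this uncertainty. A gene was therefore called different here only when counts and FPKM passed the threshold in the same direction. Beyond counting error, the variation between replicates was a coefficient of variation of 4.94%, a common value fitted to the counts of all tested genes. The study calls the replicates biological and the labels describe plating in triplicate, but the sources do not say whether these were separate cultures, and p-values measure only the spread between these samples, which may be technical. In bulk RNA, fewer cells that express a gene and less RNA per cell cannot be told apart.

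Under JQ-1 the ligands still differed at many genes, with the largest differences at genes higher with DHT. The genes NCAPD3, SGK1, SPDEF and FKBP5 were 24.3-fold, 19.9-fold, 16.8-fold and 10.6-fold higher with DHT than with enzalutamide in counts, and PLD1, CAMK2N1 and LPPR1 led the genes that were lower with DHT. Of 10022 genes in both fits, 935 (9.33%) were higher and 692 (6.90%) lower with DHT at an adjusted p of at most 0.05 in edgeR for counts and in limma for log2(FPKM + 1). Counts alone gave 1980 genes of 10551 (18.8%) and FPKM alone 5214 genes of 11675 (44.7%). From the same counts DESeq2 called 912 genes, and an equal-variance test of both groups after variance stabilization called 572. Among the FPKM calls 36.8% were higher with DHT, a share that was 47.5% when each sample was centred on its median. Differences of at least 2-fold in both fits were found at 164 genes, 127 of them higher with DHT. Exons of 360 of the 1627 called genes overlapped a counted gene on the other strand, which was 24.2% of those matched to the annotation against 25.9% of all genes tested.

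**Figure D1:**
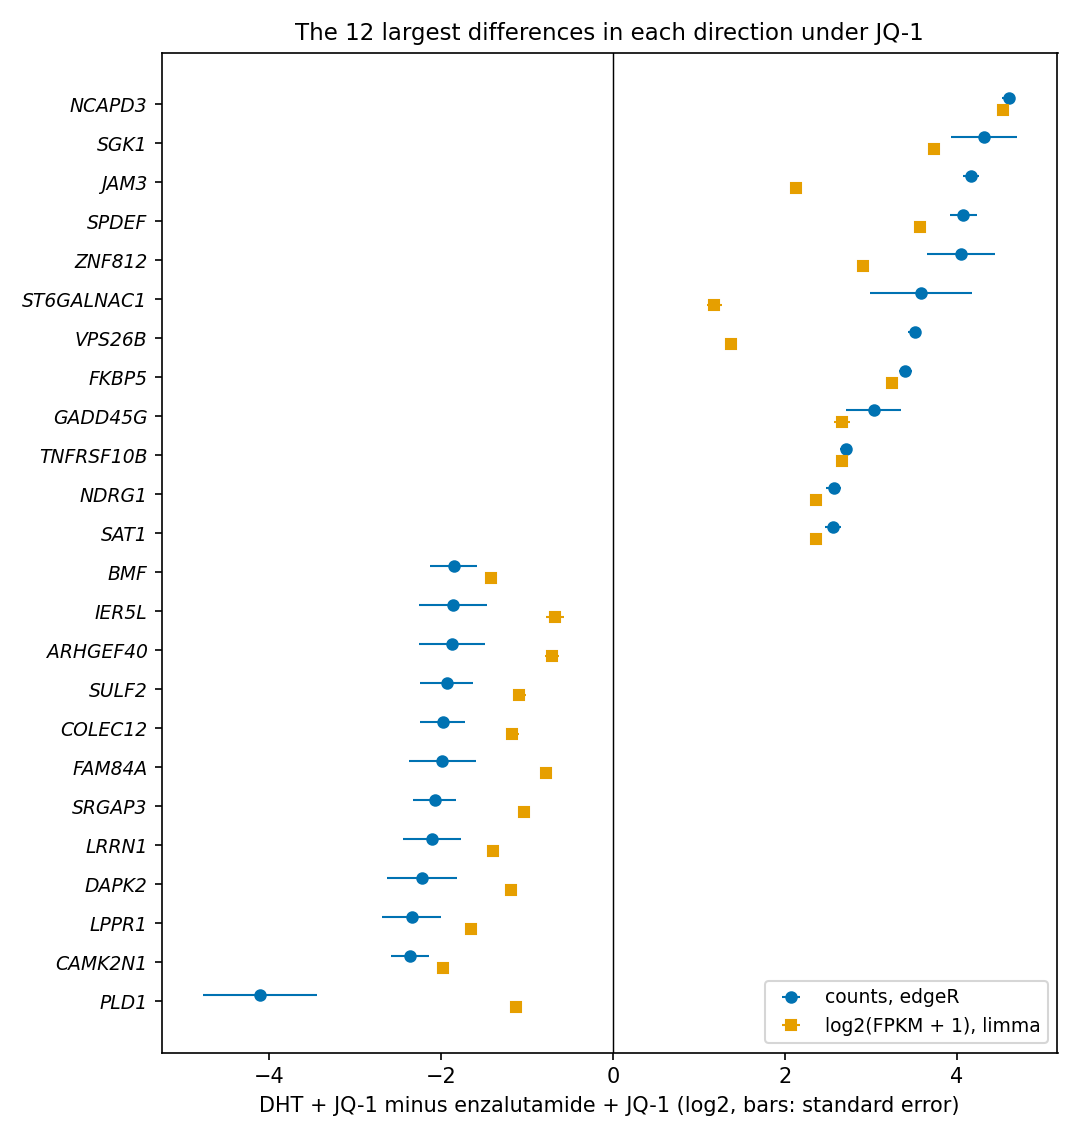
The 12 genes with the largest difference in each direction under JQ-1, as the log2 difference of DHT with JQ-1 minus enzalutamide with JQ-1 (x axis) from counts (circles) and from log2(FPKM + 1) (squares), with bars for 1 standard error and 3 samples per group. NCAPD3 stands at 4.60 in counts and 4.53 in FPKM, whereas JAM3 and VPS26B, which overlap it on the other strand, lie far lower in FPKM than in counts.

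The first group of members comprised well-known genes that androgens induce, together with NCAPD3, which was named for its large difference in these data. NCAPD3, a subunit of the condensin II complex that compacts chromosomes, stood at 463, 473 and 458 FPKM with DHT and JQ-1 and at 18.8, 19.6 and 19.0 FPKM with enzalutamide and JQ-1. Each DHT sample was far above each enzalutamide sample, with a log2 difference of 4.60 ± 0.08 (SE, n = 3 against 3; adjusted p = 2.45e-94, edgeR). The gene lies at chr11:134020008-134095398 on the minus strand (GRCh37, GENCODE), and its exons overlap those of JAM3 and VPS26B on the plus strand. Counts put JAM3 at a log2 difference of 4.16 and VPS26B at 3.51, but their FPKM differed by only 2.12 and 1.37, so the count values of both genes are uncertain.

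FKBP5 encodes a co-chaperone of steroid receptors and lies at chr6:35541362-35696360. Its level was 281, 294 and 296 FPKM with DHT and 29.8, 30.0 and 29.3 FPKM with enzalutamide under JQ-1. The DHT samples stood 3.40 ± 0.07 higher on the log2 scale (adjusted p = 1.08e-80). Without JQ-1 the same difference was 3.12 ± 0.09, and the change of the difference with JQ-1 did not pass the threshold in counts (0.28 ± 0.12, adjusted p = 0.256). Enzalutamide thus gave 10.2% of the DHT level of FKBP5 in FPKM with JQ-1 and 11.6% without it. NDRG1, a stress-responsive gene induced by androgens, was at 135, 153 and 149 FPKM with DHT and at 26.6, 27.0 and 29.0 FPKM with enzalutamide under JQ-1. Its enzalutamide samples lay close to JQ-1 alone, which averaged 25.7 FPKM, while every DHT sample was far above it. ABCC4, a transporter that exports cyclic nucleotides and drugs, averaged 19.3 ± 0.17 FPKM (SD, n = 3) with DHT and 4.14 ± 0.25 FPKM with enzalutamide.

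SPDEF, an ETS transcription factor of secretory epithelia, showed a larger ligand difference with JQ-1 than without. Under JQ-1 its level was 53.6, 59.6 and 56.2 FPKM with DHT and 4.07, 3.93 and 3.49 FPKM with enzalutamide. JQ-1 alone averaged 3.83 FPKM, as low as the enzalutamide samples. Without JQ-1 the means were 124 FPKM with DHT and 37.4 FPKM with enzalutamide, beside 32.8 FPKM with vehicle. The ligand difference was 4.07 ± 0.16 with JQ-1 and 1.73 ± 0.10 without it, and its change of 2.34 ± 0.21 passed the threshold (adjusted p = 1.39e-09 in counts and 5.28e-08 in FPKM).

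The prostate kallikreins KLK3 and KLK2 encode secreted proteases, the first of which is prostate-specific antigen. KLK3 lies at chr19:51358171-51364020 and KLK2 beside it at chr19:51364824-51383823, both on the plus strand (GRCh37, GENCODE). They are close paralogs, and how reads that fit both were handled is not stated. Their RefSeq promoters are printed for the pair, since both genes moved in the same direction and differed in how JQ-1 changed the ligand difference. Each runs 5′ to 3′ on the plus strand from 250 bases before to 50 bases after the start, at chr19:50854665-50854964 for KLK3 and chr19:50873189-50873488 for KLK2 (GRCh38.p14). Capitals mark matches to the letters AGAACA or GGAACA, one arm of the palindrome that steroid receptors are known to bind, searched on both strands.
KLK3: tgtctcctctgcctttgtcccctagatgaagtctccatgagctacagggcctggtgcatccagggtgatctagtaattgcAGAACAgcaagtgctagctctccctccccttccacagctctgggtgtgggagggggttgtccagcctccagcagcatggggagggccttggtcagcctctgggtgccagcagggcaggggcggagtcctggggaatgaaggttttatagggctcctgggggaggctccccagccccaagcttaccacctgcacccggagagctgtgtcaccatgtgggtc
KLK2: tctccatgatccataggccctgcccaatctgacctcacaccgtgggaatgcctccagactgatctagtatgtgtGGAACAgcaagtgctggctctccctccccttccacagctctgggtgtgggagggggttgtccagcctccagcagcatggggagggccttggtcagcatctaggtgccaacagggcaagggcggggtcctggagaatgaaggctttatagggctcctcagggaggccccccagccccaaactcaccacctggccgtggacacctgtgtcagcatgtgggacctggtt
KLK3 held 1 match, AGAACA, whose first base lies at -170 from the start (the start base being 1), and KLK2 held 1 match, GGAACA, at -176. Without gaps, 225 of 294 aligned bases (76.5%) were equal between the promoters. AGAACA occurred in 14.9% of all 27305 RefSeq promoters of this length and in 8.16% of the 7498 promoters of genes tested in both fits. It occurred in 7.55% of the 728 promoters of genes higher with DHT under JQ-1, in 7.81% of the 512 promoters of genes lower with DHT and in 3 of 22 promoters of androgen-induced targets (13.6%). GGAACA occurred in 13.9% of all promoters, in 10.9% of those of tested genes, in 9.89% and 8.01% of those of genes higher and lower with DHT, and in 4 of the 22 (18.2%). A match is a stretch of letters and no measured site.

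KLK3 stood at 158, 164 and 161 FPKM with DHT and JQ-1, at 44.9, 46.6 and 46.1 FPKM with enzalutamide and JQ-1, and at a mean of 7.01 FPKM with JQ-1 alone. Every DHT sample was above every enzalutamide sample, and both were above JQ-1 alone. Without JQ-1 the levels were 1258 ± 61 FPKM with DHT and 800 ± 8.9 FPKM with enzalutamide (SD, n = 3), and vehicle averaged 283 FPKM, so that the KLK3 mean was above that of unliganded cells with either ligand, both with JQ-1 and without it. The DHT level with JQ-1 was 12.8% of that without, and the enzalutamide level 5.74%. The ligand difference was 1.78 ± 0.09 with JQ-1 (adjusted p = 4.08e-38) and 0.73 ± 0.07 without it, and its change of 1.05 ± 0.12 passed the threshold (adjusted p = 1.54e-07 in counts). KLK2 was at 11.2, 11.3 and 12.2 FPKM with DHT and 3.63, 3.78 and 3.65 FPKM with enzalutamide under JQ-1. Its ligand difference of 1.45 ± 0.20 passed the threshold, but the change with JQ-1 did not in counts (0.23 ± 0.22, adjusted p = 0.707; FPKM 0.39, adjusted p = 0.000479). KLK4, another kallikrein of prostate epithelium, differed between the ligands only in the contrast with JQ-1 by the rule of both fits, at 91.7 ± 6.8 FPKM against 40.3 ± 1.6. Without JQ-1 it was at 76.7 FPKM with DHT and 75.0 FPKM with enzalutamide, and the change of the difference was 0.96 ± 0.15 (adjusted p = 0.000113).

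TMPRSS2, a membrane-bound serine protease, was at 46.3, 48.0 and 47.8 FPKM with DHT and 32.5, 32.2 and 31.3 FPKM with enzalutamide under JQ-1. The groups did not overlap, and the difference of 0.69 ± 0.10 (adjusted p = 5.51e-09) was the smallest of the targets named so far. Without JQ-1 it was 1.00 ± 0.10, and the change of -0.31 ± 0.13 did not pass the threshold in counts (adjusted p = 0.289).

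**Figure D2:**
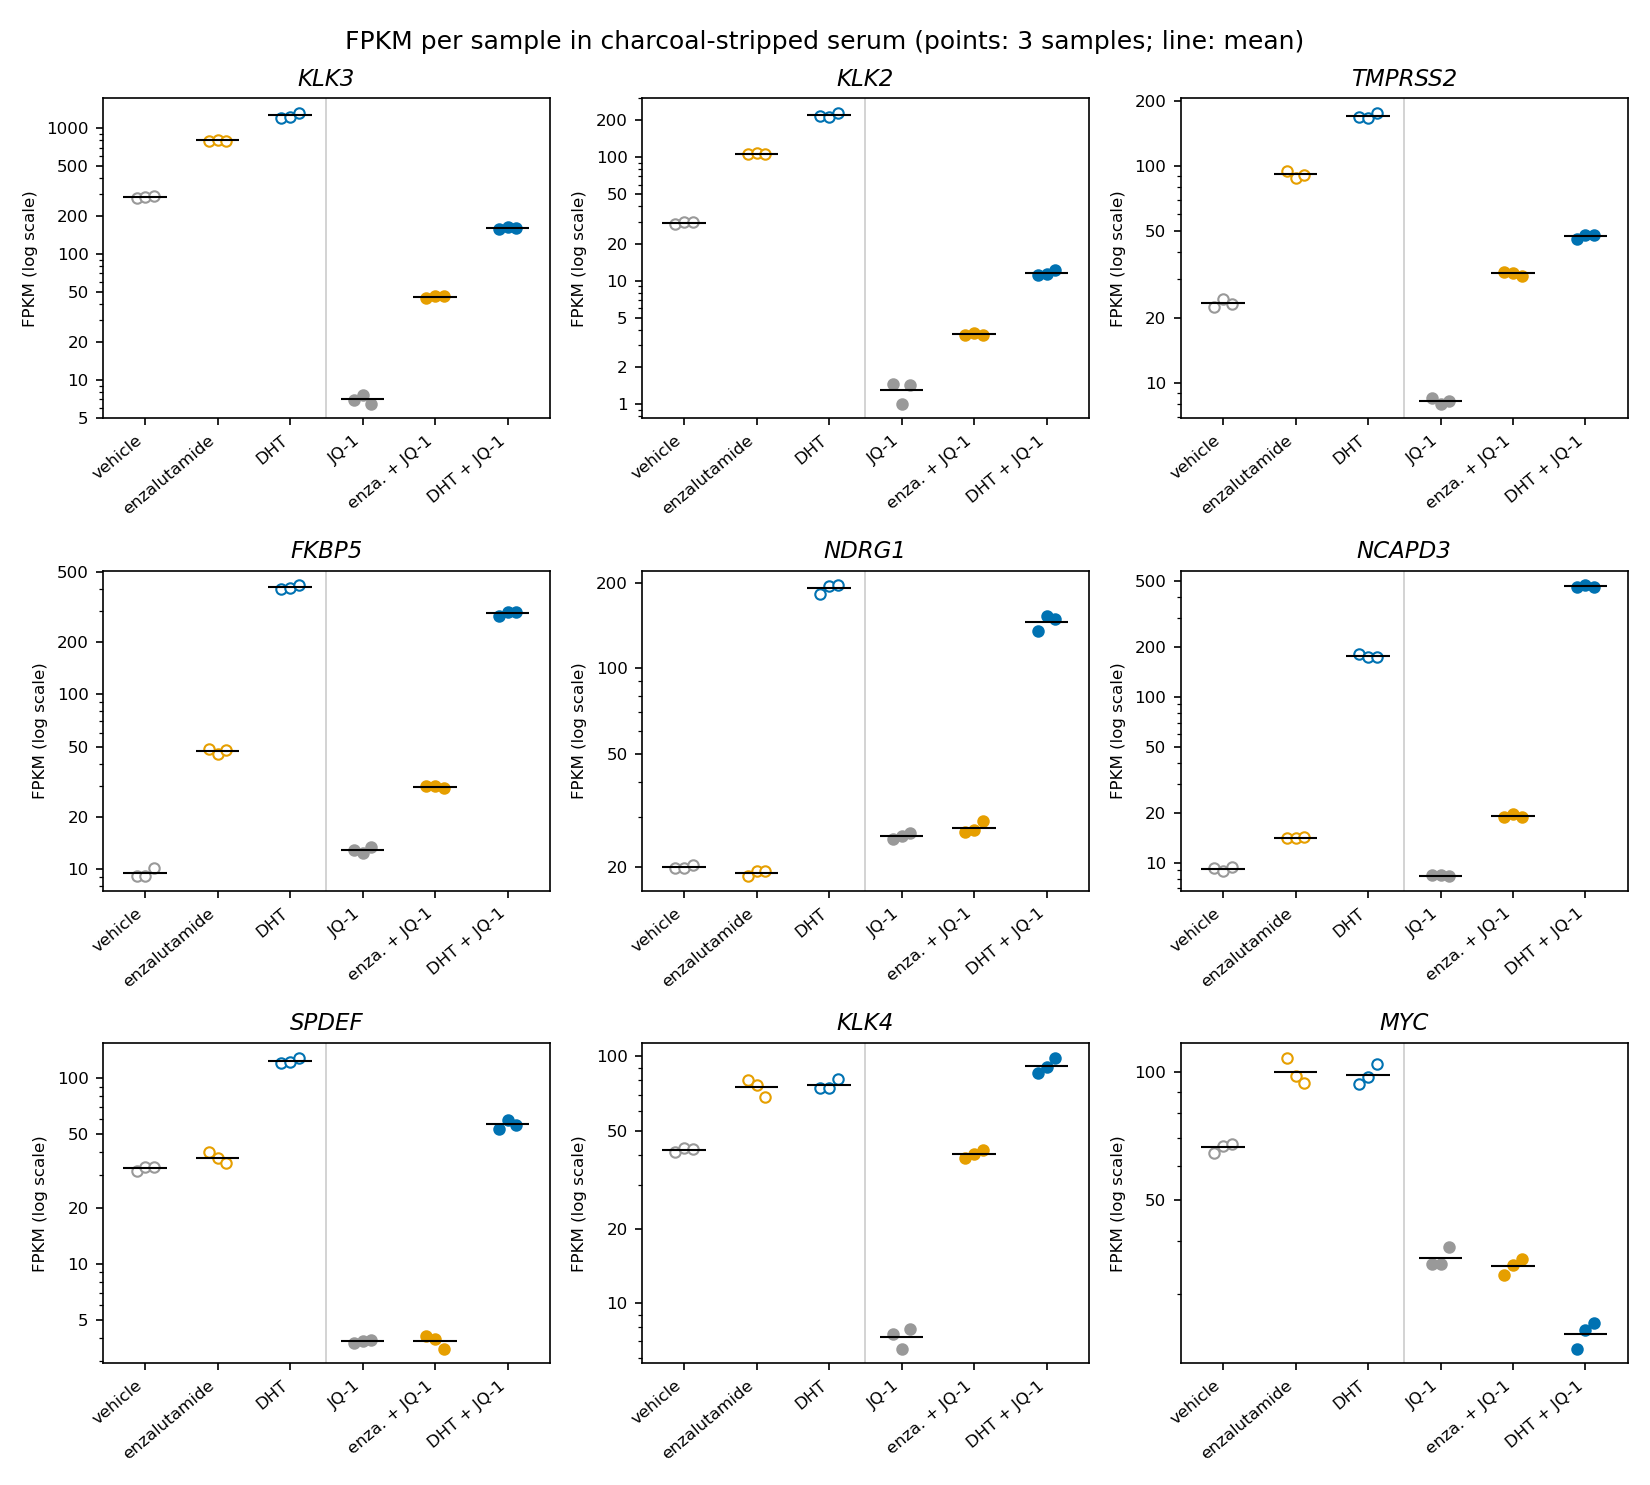
FPKM (y axis, log scale) of 9 genes in each of the 3 samples (points) of the 6 treatments in charcoal-stripped serum (x axis; open points without JQ-1, filled points with JQ-1), with the mean as a line. KLK3, KLK2 and TMPRSS2 keep the order DHT, enzalutamide, no ligand under JQ-1 at lower levels, SPDEF with enzalutamide falls on JQ-1 alone at 3.83 FPKM, and MYC has DHT lowest with JQ-1.

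Over the whole list of 30 androgen-induced targets, 28 passed the filters of both fits under JQ-1, and 25 were higher with DHT and 0 lower, beside 9.33% of all genes tested. Their median log2 difference was 1.23 in counts, against -0.0025 over all genes tested in both fits. The 3 tested members that did not pass were PMEPA1 (log2 difference -0.02), MAF (0.50) and AZGP1 (0.92). The 2 members left out by the filters were STEAP4 and TRPM8. STEAP4, a metalloreductase, was at 0.681 to 1.02 FPKM with DHT and JQ-1 and at most 0.0326 FPKM with enzalutamide and JQ-1, whereas DHT alone gave a mean of 8.89 FPKM. Without JQ-1, 29 of the 30 genes were higher with DHT, beside 9.85% of all genes tested, the exception being KLK4. Beside the genes already named, C1orf116, SORD, RHOU and ACSL3 each had a log2 difference of 1.85 to 2.26 under JQ-1.

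SGK1, a kinase that regulates ion transport and survival and is induced by several steroid receptors, had the largest difference after NCAPD3 among genes higher with DHT. It was at 18, 17.8 and 18.1 FPKM with DHT and at 0.387, 0.477 and 0.401 FPKM with enzalutamide under JQ-1. The enzalutamide samples held only 4, 0 and 2 reads, against 58, 45 and 59 with DHT, so the size of the difference (4.31 ± 0.38) rests on few counts. The DHT level was 18.4 FPKM without JQ-1 and 18 FPKM with it. SGK1 belongs to a list of 12 genes that glucocorticoids and androgens both control. Of the 10 tested, 7 were higher with DHT, beside 9.33% of all genes, among them ERRFI1 (37.7 ± 0.5 against 11 ± 0.2 FPKM), an inhibitor of EGF receptor signalling, TIPARP (30.1 against 9.07 FPKM) and the NF-kappaB inhibitor NFKBIA (91.9 against 27.1 FPKM). One member went the other way. TSC22D3, a mediator of glucocorticoid action, was at 6.70, 7.95 and 6.85 FPKM with DHT and 17.4, 19.9 and 19.7 FPKM with enzalutamide. NR3C1, the glucocorticoid receptor itself, was at most 0.0430 FPKM in these 6 samples.

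Other genes far higher with DHT under JQ-1 are not on that list of targets. GADD45G, a stress-induced growth regulator, was at 29.7, 31.8 and 30.8 FPKM with DHT and 3.28, 4.52 and 4.36 FPKM with enzalutamide. TNFRSF10B, a death receptor for the ligand TRAIL, was at 251, 257 and 248 FPKM with DHT and 38.3, 39.8 and 38.8 FPKM with enzalutamide. The TNFRSF10B difference of 2.71 ± 0.07 was above the 1.33 ± 0.09 seen without JQ-1, and its change of 1.37 ± 0.11 passed the threshold (adjusted p = 1.93e-10). DHT alone gave 90.8 FPKM of this gene and enzalutamide alone 41.0 FPKM, so the DHT level was higher with JQ-1 than without it, whereas the enzalutamide means were 39.0 and 41.0 FPKM. Exons of TNFRSF10B overlap RHOBTB2 on the other strand, but its difference was 2.66 in FPKM. ZNF812, a zinc finger gene, averaged 13.3 FPKM with DHT and 0.914 FPKM with enzalutamide under JQ-1.

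**Figure D3:**
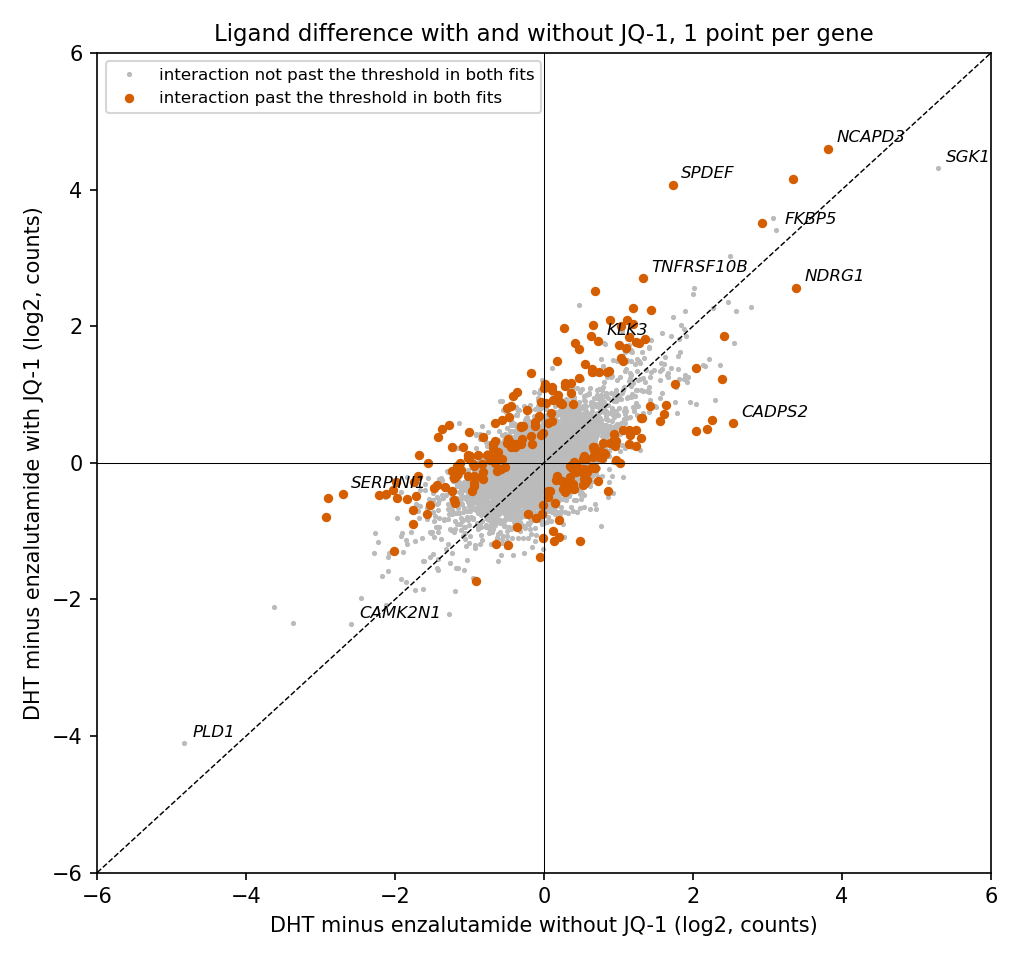
Log2 difference of DHT minus enzalutamide from counts without JQ-1 (x axis) and with JQ-1 (y axis) for each of 9661 genes tested in both contrasts, 1 point per gene. Orange points are 241 genes whose change of the difference passed the threshold in both fits, and the dashed line marks equal differences, with SPDEF and TNFRSF10B above it and NDRG1 and CADPS2 below it.

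The ligand differences with and without JQ-1 rest on different samples and could be set against each other. Without JQ-1, 1020 genes (9.85%) were higher and 909 (8.77%) lower with DHT of 10360 tested in both fits, with 19.4% called in counts and 57.4% in FPKM. The contrasts shared 867 called genes, 53.3% of those with JQ-1 and 44.9% of those without. Of these, 857 had the same direction and 10 the opposite. The median size over the 857 genes was 0.64 with JQ-1 and 0.73 without it, and 552 of them had the smaller value with JQ-1. This set leaves out genes whose difference was called in only 1 contrast. Over genes called without JQ-1 and tested in both contrasts, the median size was 0.38 with JQ-1 and 0.65 without it. That set was chosen by its values without JQ-1, which favours larger values there. A test of the change itself, in 12 samples, gave 154 genes (1.41%) with a positive and 95 (0.873%) with a negative value in both fits, out of 10888 tested (2.45% in counts and 22.4% in FPKM). In FPKM 60.8% of the calls were positive, and 48.9% after centring on the median. Among the 857 genes the change was called for 37 that were larger and 38 that were smaller with JQ-1. Of the 249 genes with a called change, 96 had a called ligand difference only without JQ-1 and 60 only with it. Leaving out replicate 1 of DHT with JQ-1 brought the 249 genes to 160.

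Genes whose ligand difference was smaller with JQ-1 included several targets of DHT. CADPS2, a factor of vesicle exocytosis, was at 18.5, 17.6 and 16.7 FPKM with DHT alone and 2.90, 2.67 and 3.18 FPKM with enzalutamide alone. With JQ-1 it was at 2.49, 2.48 and 2.23 FPKM with DHT and 1.76, 1.58 and 1.54 FPKM with enzalutamide, and the change was -1.96 ± 0.38 (adjusted p = 0.00167). SPOCK1, a matrix proteoglycan, averaged 20.1 FPKM with DHT alone and 1.35 FPKM with DHT and JQ-1, and its change was -1.88 ± 0.49. BHLHA15, a factor of secretory cells, averaged 22.6 FPKM with DHT alone and 0.653 FPKM with DHT and JQ-1, and its change of -4.24 ± 1.18 rests on 1 read with DHT and 5 with enzalutamide under JQ-1. The linker histone HIST1H1E had a change of -2.37 ± 0.58, but it belongs to a family of near-identical genes and is uncertain. NDRG1 had a smaller difference with JQ-1 too, 2.56 against 3.39, with a change of -0.83 ± 0.15 (adjusted p = 0.000678). Over the 30 androgen-induced targets the change was called positive for 5, among them KLK3, KLK4, SPDEF and C1orf116. It was called negative for 7 (NDRG1, ACSL3, PMEPA1, ELL2, CENPN, TPD52 and MAF), and the median was 0.04. Of all genes tested, 1.41% were called positive and 0.873% negative.

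Among genes with a positive change, TNFSF4 and KALRN behaved differently. TNFSF4, a ligand of the TNF family, was at 6.14, 6.32 and 5.83 FPKM with DHT and JQ-1 and at 2.09, 1.87 and 1.96 FPKM with enzalutamide and JQ-1. Without JQ-1 both ligands gave 1.82 to 2.26 FPKM, and TNFSF4 was not tested in counts there. The change was 3.20 ± 0.60 in counts (adjusted p = 0.00114, edgeR) but 1.22 in FPKM, so its size in counts is uncertain. KALRN, a guanine nucleotide exchange factor, was low with DHT alone (0.427 FPKM against 1.71 with enzalutamide), and with JQ-1 it was at 1.06 and 1.55 FPKM. The KALRN change was 2.38 in counts but 0.62 in FPKM. SERPINI1, a neuronal serine protease inhibitor used as a marker of BET inhibition, was at 10.5 FPKM with DHT alone and 76.3 FPKM with enzalutamide alone. With JQ-1 it was at 22.9, 24.7 and 24.3 FPKM with DHT and 34.9, 38.1 and 37.8 FPKM with enzalutamide, still without overlap but far closer. This call was lost in counts when single libraries were left out, such as replicate 1 of DHT with JQ-1 (-0.45), and in DESeq2 (-0.45).

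STEAP2 was among the 10 genes that reversed between the contrasts. This metalloreductase of prostate epithelium, named here after its values were seen, was at 254, 250 and 247 FPKM with DHT and JQ-1 and at 192, 202 and 182 FPKM with enzalutamide and JQ-1. Without JQ-1 the order was the opposite, at 173, 170 and 159 FPKM with DHT and 193, 209 and 212 FPKM with enzalutamide. The STEAP2 difference of 0.53 ± 0.06 with JQ-1 and of -0.31 ± 0.09 without it gave a change of 0.84 ± 0.11 (adjusted p = 4.04e-06). ADARB1, ATP1B1, SERINC5, SYT4 and TNFRSF10D were likewise higher with DHT under JQ-1 and lower without it, and SAPCD2 and TMED3 had the reverse order.

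GATA2 and HOXB13, transcription factors of prostate chromatin, were lower with DHT under JQ-1, as was the coregulator NCOA3, whose call was lost without replicate 2 of enzalutamide with JQ-1 (-0.37) and in DESeq2 (-0.48). GATA2 was at 26.5, 28.7 and 29.8 FPKM with DHT and 49.1, 52.3 and 52.8 FPKM with enzalutamide, and JQ-1 alone was higher than both at 83.4 FPKM. HOXB13 averaged 58.4 and 76.4 FPKM with the ligands and 108 FPKM with JQ-1 alone. FOXA1 was at 162 ± 6.48 and 160 ± 1.45 FPKM, a difference of 0.00 ± 0.06 that did not pass the threshold. The chaperone HSPA8 was higher with DHT (939 against 763 FPKM), as was HSP90AA1.

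MYC, a proto-oncogene whose transcription is known to depend on BET proteins in many cancers, was lower with DHT under JQ-1. It was at 22.2, 24.7 and 25.5 FPKM with DHT and 33.2, 35.1 and 36.3 FPKM with enzalutamide, close to the 36.4 FPKM of JQ-1 alone. The difference of -0.42 ± 0.11 (adjusted p = 0.00153) had no called counterpart without JQ-1, where the means were 98.8 and 100.3 FPKM, and its change was -0.50 ± 0.14 (adjusted p = 0.0378). In DESeq2 the MYC difference under JQ-1 was -0.40 and did not pass the threshold. Of 16 genes of the BET proteins, P-TEFb and markers of BET inhibition, 12 were tested. MYC and SERPINI1 were the members called, both lower with DHT, beside 6.90% lower of all genes tested. The BET genes BRD2 and BRD3 had log2 differences of -0.17 and 0.17 in counts that did not pass, and of 0.26 and 0.20 in FPKM that passed there alone. BRD2 held only 9 to 21 reads per sample although it averaged 301 and 251 FPKM. HEXIM1, an inhibitor of P-TEFb whose rise marks BET inhibition, was at 77.2 ± 4.6 FPKM with DHT and JQ-1 and 79.2 ± 1.4 FPKM with enzalutamide and JQ-1, whereas it was at 12.3 and 11.5 FPKM without JQ-1.

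The genes with the largest difference in the other direction, lower with DHT under JQ-1, were led by PLD1. PLD1, a phospholipase that makes phosphatidic acid, was at 0.158, 0.160 and 0.0862 FPKM with DHT and 1.5, 1.41 and 1.5 FPKM with enzalutamide. It held 2 reads over the 3 DHT samples and 32 over the enzalutamide samples, a ratio of 21.8 per counted read (exact 95% interval 5.55 to 187, for counting error only). JQ-1 alone gave 3.89 FPKM, above both ligands. CAMK2N1, an inhibitor of CaM kinase II repressed by androgens, was at 4.22, 4.14 and 4.60 FPKM with DHT and 20.6, 20.1 and 19.0 FPKM with enzalutamide. Its difference in counts of -2.37 ± 0.22 (adjusted p = 9.41e-18) lay near the -2.59 ± 0.13 seen without JQ-1, and the change did not pass the threshold in counts (0.22 ± 0.29). In FPKM the difference was -1.98 with JQ-1 and -2.58 without it, and the change of 0.60 passed (adjusted p = 1.85e-05, limma).

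LPPR1, a phospholipid phosphatase-related membrane protein, averaged 1.90 FPKM with DHT and 8.08 FPKM with enzalutamide under JQ-1. BMF, a pro-apoptotic member of the BCL2 family, was at 2.06, 2.11 and 2.24 FPKM with DHT and 6.58, 8.05 and 7.54 FPKM with enzalutamide. DAPK2, a kinase linked to cell death, averaged 0.940 and 3.41 FPKM, and the sulfatase gene SULF2 averaged 0.835 and 2.91 FPKM. The remaining genes of the 12 with the largest difference were LRRN1, SRGAP3, FAM84A, COLEC12, ARHGEF40 and IER5L, with log2 differences of -2.11 to -1.86. Exons of LRRN1, SRGAP3, SULF2 and ARHGEF40 overlap another gene on the other strand, and their FPKM differed by -1.40, -1.03, -1.09 and -0.71. All 12 were below the mean of JQ-1 alone with DHT in FPKM.

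The list of 14 androgen-repressed genes had only 3 members that passed both filters under JQ-1. CAMK2N1 and NOV, a matricellular protein, were lower with DHT, beside 6.90% lower of all genes tested. The call of NOV was lost without replicate 2 of DHT with JQ-1 (-0.92) and in DESeq2 (-1.01). DDC, the decarboxylase that makes dopamine and serotonin, was at 3.97 and 6.19 FPKM and did not pass in counts (-0.40 ± 0.35), whereas without JQ-1 it was at 25.4 and 105 FPKM. The change of the DDC difference passed the threshold (1.61 ± 0.36, adjusted p = 0.0081). UGT2B15 and UGT2B17, which inactivate DHT by glucuronidation, were below 0.3 FPKM in all 6 samples. In FPKM alone, 7 members were tested, with 2 higher and 5 lower, beside 1920 higher and 3294 lower of all 11675 genes. Reads of UGT2B genes are shared among near-identical copies, and UGT2B11 and UGT2B28 were higher with DHT in FPKM (1.15 and 0.81 on the log2 scale) without reaching the count filter. CXCR7, also short of the count filter, was lower with DHT (0.785 against 2.96 FPKM, -1.15 on the log2 scale).

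Many genes of lipid synthesis were higher with DHT under JQ-1, while others did not pass the test. Of 32 genes of cholesterol and fatty acid synthesis, 31 were tested, and 16 were higher, 1 was lower and 14 were not called, beside 9.33% higher and 6.90% lower of all genes, with a median log2 difference of 0.38. FDFT1, squalene synthase at the first committed step of sterol synthesis, was at 316, 324 and 318 FPKM with DHT and 82.3, 82.4 and 79.3 FPKM with enzalutamide. Its difference of 2.08 ± 0.08 was larger than the 0.89 ± 0.10 without JQ-1, and the change passed the threshold (1.19 ± 0.13, adjusted p = 5.89e-08). FASN, the fatty acid synthase, was at 509, 505 and 509 FPKM with DHT and 151, 152 and 150 FPKM with enzalutamide, close to the 163 FPKM of JQ-1 alone.

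The elongase ELOVL7 averaged 108 ± 3 FPKM with DHT and 33.4 ± 1.7 FPKM with enzalutamide under JQ-1, and ACACA, the first enzyme of fatty acid synthesis, 53.5 and 26.4 FPKM. The member that was lower with DHT was TM7SF2, a sterol reductase, at 123 and 186 FPKM. The desaturase SCD was at 192 and 197 FPKM and did not pass the test. SREBF1, a transcription factor of lipid genes, was at 141 and 143 FPKM with JQ-1 and at 103 and 82.8 FPKM without it, with a change of -0.40 ± 0.11 (adjusted p = 0.0407).

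Some enzymes that make and acetylate polyamines were also higher with DHT. Of 9 tested genes of polyamine metabolism, 4 were higher, 0 lower and 5 not called, beside 9.33% higher of all genes. ODC1, ornithine decarboxylase at the entry of the pathway, was at 1095, 1138 and 1122 FPKM with DHT and 340, 331 and 344 FPKM with enzalutamide. SAT1, which acetylates spermidine and spermine for export, was at 423, 450 and 426 FPKM with DHT and 86.1, 82.5 and 81.0 FPKM with enzalutamide. Levels of SAT1 were higher with JQ-1 than without for both ligands, at 89.6 FPKM with DHT alone and 24.5 FPKM with enzalutamide alone. SMS, spermine synthase, was at 187 ± 5 and 84.7 ± 3.4 FPKM under JQ-1 and at 768 and 148 FPKM without it, and its difference became smaller (-1.18 ± 0.12, adjusted p = 9.63e-09), whereas that of ODC1 became larger (0.48 ± 0.11, adjusted p = 0.0125). AMD1, which makes the aminopropyl donor, averaged 57.6 and 29.6 FPKM.

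**Figure D4:**
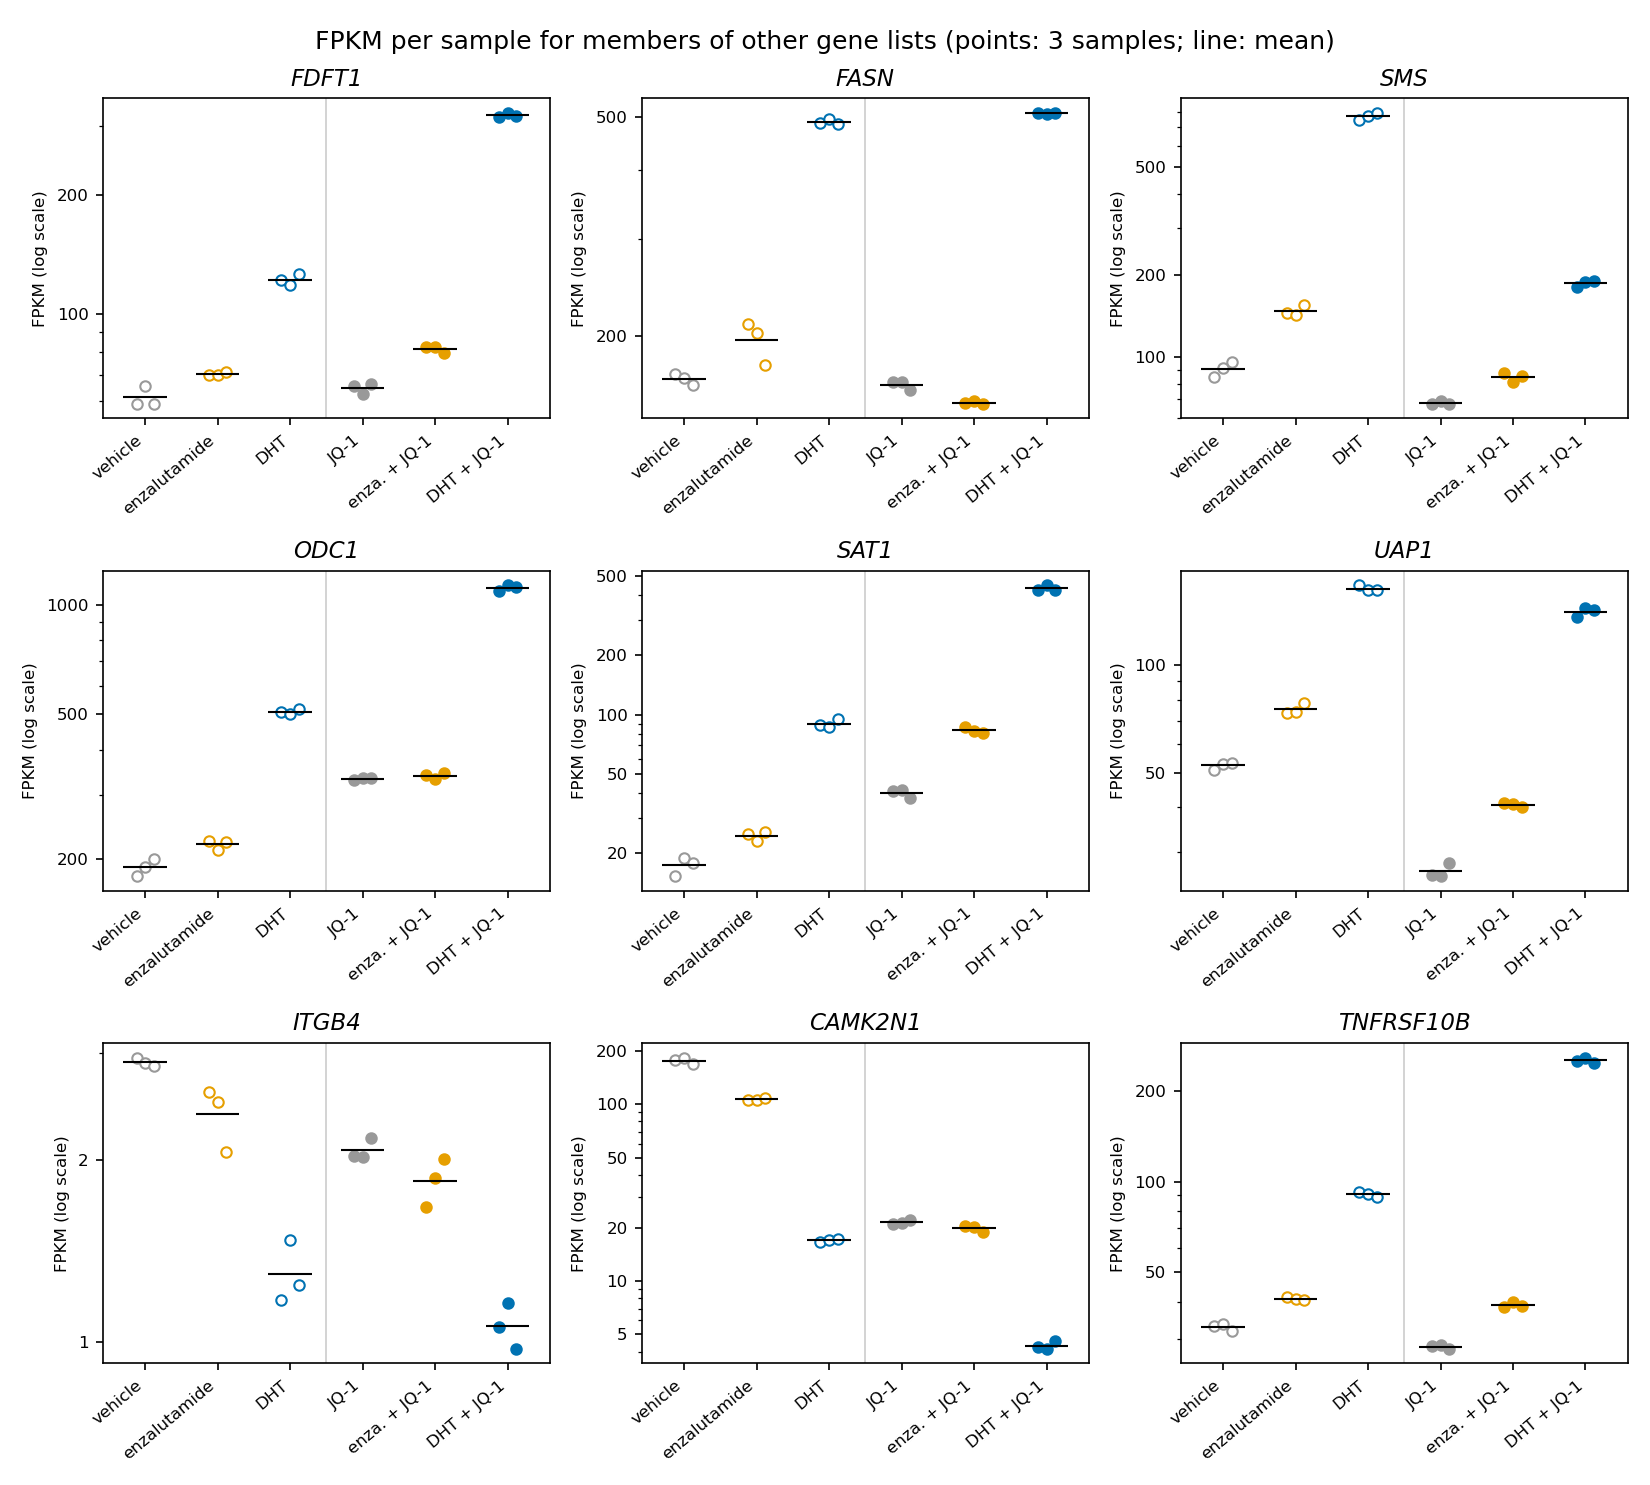
FPKM (y axis, log scale) of 9 genes of lipid synthesis, polyamine metabolism, glycosylation, adhesion and other lists in each of the 3 samples (points) of the 6 treatments in charcoal-stripped serum (x axis; open points without JQ-1, filled with JQ-1), with the mean as a line. Under JQ-1 the enzalutamide samples of FASN and ODC1 lie near JQ-1 alone while the DHT samples lie well above it, and CAMK2N1 and ITGB4 are lowest with DHT.

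Among glycosylation and protein folding genes, more were higher than lower with DHT. Of 14 tested glycosylation enzymes, 8 were higher and 1 (MGAT4A) lower with DHT, beside 9.33% and 6.90% of all genes tested, with a median log2 difference of 0.43. UAP1 and PGM3, consecutive enzymes of UDP-N-acetylglucosamine synthesis, were at 141 and 46.7 FPKM with DHT and at 40.7 and 10.6 FPKM with enzalutamide. ST6GALNAC1, which makes the sialyl-Tn antigen, was at 1.49, 1.84 and 2.01 FPKM with DHT and 0.208, 0.204 and 0.259 FPKM with enzalutamide. It held 51 and 3 reads, a ratio of 12.5 per counted read (exact 95% interval 4.04 to 62.6). DHT alone gave 42.9 FPKM of it, and 4.15% of this level remained with JQ-1. Of 26 tested genes of ER folding and the unfolded protein response, 15 were higher with DHT and 2 lower, beside the same 9.33% and 6.90%, with a median of 0.37. Those higher included the stress sensor ERN1 (14.9 against 6.65 FPKM), the disulfide isomerase PDIA5 (39.0 against 19.1 FPKM) and the chaperone HSPA5 (188 against 131 FPKM). The 2 lower were ATF4 (102 against 136 FPKM) and its target DDIT3 (19.1 against 37.4 FPKM), transcription factors of the integrated stress response.

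**Figure D5:**
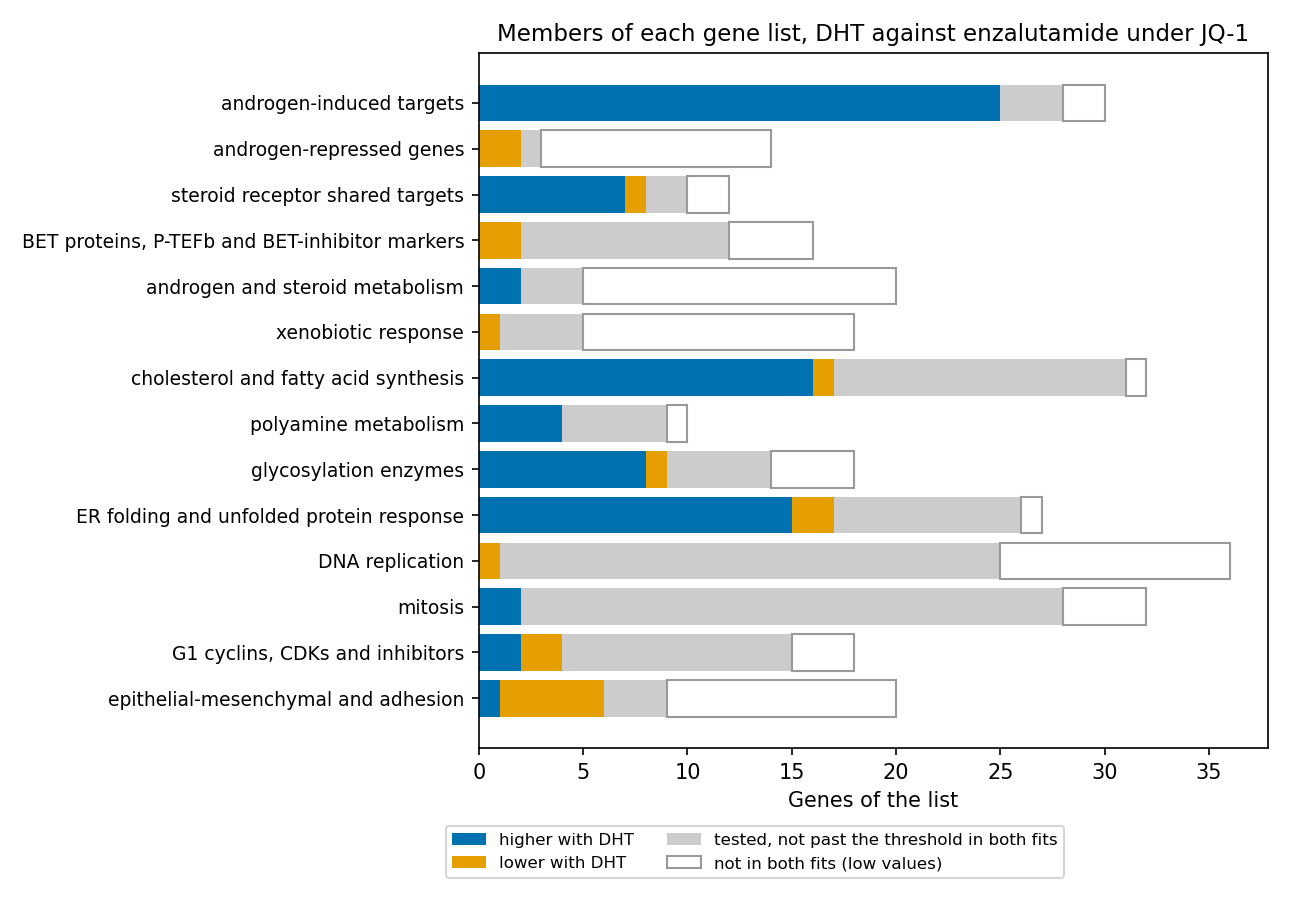
Number of genes (x axis) in each of 14 gene lists (rows) that were higher with DHT (blue), lower with DHT (orange), tested but not called in both fits (grey) or not in both fits because of low values (white) under JQ-1. Of the androgen-induced targets 25 of 30 were higher, whereas 1 of the 25 tested DNA replication genes was called.

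Genes of the cell cycle were called under JQ-1 at shares to be read beside the 9.33% higher and 6.90% lower of all genes. Of 25 tested DNA replication genes, 0 were higher and 1 lower with DHT, the cyclin gene CCNE2 (3.58 against 6.11 FPKM). Without JQ-1, 11 of 35 tested members were higher with DHT and 0 lower, beside 9.85% higher of all genes, among them CDC6, a loader of the replicative helicase. CDC6 was at 23.8 and 14.8 FPKM without JQ-1 and at 4.48 and 3.13 FPKM with it, and the change was not called (-0.46 ± 0.33, adjusted p = 0.602). The change was called for 0 of the 35 members tested in both edgeR and limma. In limma alone it was called for 14 of 36 tested members, all negative, beside 1083 negative calls among all 12357 genes. Of 28 tested mitosis genes, 2 were higher with DHT, CDK1 (58.2 ± 2.7 against 44.1 ± 2.5 FPKM) and MKI67 (10.1 against 8.90 FPKM). Among 15 tested G1 genes, CCND1 (51.2 against 40.6 FPKM) and CDKN1C (6.20 against 3.65 FPKM) were higher, and the inhibitors CDKN1B (26.5 against 36.2 FPKM) and CDKN2C (9.54 against 11.9 FPKM) lower. The calls of MKI67, CDKN1C and CDKN2C were each lost in counts when replicate 1 of DHT with JQ-1 was left out, with log2 values of 0.20, 0.68 and -0.41. The call of CCNE2 was lost without replicate 3 of enzalutamide with JQ-1 (-0.35). In DESeq2, CCNE2 (-0.46), CDKN1B (-0.44), MKI67 (0.23), CDKN1C (0.82) and CDKN2C (-0.48) did not pass.

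Adhesion genes were mostly lower with DHT. Of 20 genes of the epithelial-mesenchymal and adhesion list, 9 were tested, 1 (CTNNB1) was higher and 5 were lower with DHT, beside 6.90% of all genes. The integrins ITGB4, ITGA2 and ITGA6, the laminin chain LAMA3 and fibronectin (FN1) were the 5, and ITGA2 did not pass in DESeq2 (-0.95). LAMA3 was at 2.35, 2.1 and 2.44 FPKM with DHT and 5.57, 5.92 and 5.53 FPKM with enzalutamide. FN1 was at 6.55 and 12.6 FPKM with JQ-1 and at 16.8 and 68.0 FPKM without it, and its difference became smaller (a change of 0.85 ± 0.13, adjusted p = 8.48e-05). The mesenchymal marker VIM was below 1 FPKM in all 6 samples.

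The remaining lists concerned hormone and drug metabolism. Of 20 genes of androgen and steroid metabolism only 5 were tested. SRD5A1, a steroid reductase that makes DHT, and HSD17B4 were higher with DHT, beside 9.33% higher of all genes tested. SRD5A1 averaged 21.6 ± 1.3 FPKM with DHT and 12.9 ± 1.7 FPKM with enzalutamide under JQ-1, and 7.79 and 7.52 FPKM without it. Of 18 genes of the xenobiotic response 5 were tested, beside 6.90% lower of all genes, and only NQO1, a quinone reductase, was called, lower with DHT. It was at 84.7, 90.6 and 88.1 FPKM with DHT and 132, 138 and 132 FPKM with enzalutamide, near the 129 FPKM of JQ-1 alone. Without JQ-1 NQO1 was at 63.0 and 68.7 FPKM, and the change was -0.61 ± 0.13 (adjusted p = 0.00366).

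JQ-1 alone showed on which side of the unliganded state the differences lay. Of the 935 genes higher with DHT, 834 (89.2%) had the DHT mean farther than the enzalutamide mean from the mean of JQ-1 alone in log2(FPKM + 1), and 643 of the 692 lower genes (92.9%) did. The median distance from JQ-1 alone was 0.44 with DHT and 0.04 with enzalutamide for the higher genes, and -0.47 and -0.05 for the lower genes. The same shares over all genes tested were not computed. Both ligands lay above JQ-1 alone for 555 of the higher genes, as with KLK3 and TMPRSS2, and below it for 435 of the lower genes, as with PLD1. For 352 of the higher genes DHT lay above JQ-1 alone and enzalutamide at or below it. For 246 of the lower genes DHT lay below it and enzalutamide at or above it. DHT itself was at or below JQ-1 alone for 28 higher genes and at or above it for 11 lower genes.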

How the data were processed

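RNA-seq reads of MR49F cells were aligned by the authors to hg19 with TopHat 2.0.9. The authors deposited HTSeq counts per gene, which are raw, and FPKM from Cufflinks 2.1.1, which are scaled to transcript length and depth. Samples were grouped by their labels, which name no batch. The libraries were strand-specific by the paper's methods, but whether counting used the strand was not given.

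Counts were tested in edgeR 4.0.16 (R 4.3.3) by the quasi-likelihood test after TMM scaling and filterByExpr, and log2(FPKM + 1) in limma 3.58.1 with a trend, for genes at 1 FPKM or more in at least 3 samples. P-values were Benjamini-Hochberg adjusted over all genes tested, with a threshold of 0.05, and all tests were two-sided. DHT was compared with enzalutamide with JQ-1 and without it, in 6 samples each. The change of the difference was tested as an interaction in 12. Differences are DHT minus enzalutamide, and the scripts were tested on simulated data. DESeq2 1.42.0, other scalings, other filters and left-out samples were alternatives. Exact intervals and reads per gene cover counting error only. Gene positions are from GENCODE release 44 on GRCh37, matched by symbol, and were not the authors' annotation.

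Genes named were KLK3, TMPRSS2 and MYC, the 12 largest differences in each direction called in both fits with groups that did not overlap and at least 5 CPM and 1 FPKM, the 4 largest interactions in each direction, up to 4 members of each list with the largest called difference, and any member a count or sentence turns on, and some genes of this rule are not reported here. The members and lists were chosen with earlier results of these data known.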

Additional observations from a re-analysis of the deposited data

Results flagged for a closer look

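The ligand difference changed with JQ-1 for 22 of the named genes by the interaction test in both counts and FPKM. The 4 largest interactions in each direction were named for that value, so the rule itself placed them among the 22. Of all 10888 genes tested, 1.41% had a positive and 0.873% a negative change in both fits. The values are log2 changes in counts, the difference of DHT minus enzalutamide with JQ-1 less the same difference without it. Among androgen-induced targets the change was 2.34 for SPDEF, 1.05 for KLK3 and -0.83 for NDRG1. For NCAPD3, which is not on that list, it was 0.78. The change was 0.81 for JAM3 and 0.58 for VPS26B, which overlap NCAPD3 on the other strand and are uncertain. MYC had a change of -0.50, SERPINI1 of 2.24 and NQO1 of -0.61. In metabolic lists it was 1.19 for FDFT1, 0.45 for FASN, 0.48 for ODC1, -1.18 for SMS and 0.82 for PGM3. FN1 had a change of 0.85 and TNFRSF10B of 1.37. The largest positive values were 3.20 for TNFSF4 and 2.38 for KALRN, and the largest negative ones -4.24 for BHLHA15, -2.37 for HIST1H1E, -1.96 for CADPS2 and -1.88 for SPOCK1. In FPKM the change was far smaller for TNFSF4 (1.22), KALRN (0.62), BHLHA15 (-1.47) and HIST1H1E (-0.83), but near the count value for CADPS2 (-1.87) and SPOCK1 (-1.84). Groups of 3 samples were not tested for outlying samples.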

How the results depend on the processing

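Of the named genes' values under JQ-1 in all alternatives run, 823 in counts and 749 in FPKM kept their direction and side of the threshold, 64 in counts lost the call, 2 in FPKM gained it and 1 turned its direction. That one was HIST1H1E, not called, whose count difference ran from -0.00587 (without replicate 1 of enzalutamide with JQ-1) to 0.51 with 1 sample left out. The DESeq2 Wald test called 912 genes with JQ-1, 1161 without it and 167 for the interaction, and an equal-variance test of both groups after variance stabilization called 572 and 978 for the ligand differences. At least 2-fold in both fits were 164, 273 and 33 genes. The cause of these shifts was not tested. Leaving out 1 sample at a time gave 1492 to 1766 genes in counts, 4270 to 4893 in FPKM and 1222 to 1469 in both with JQ-1. Without JQ-1 it gave 1483 to 2120, 5700 to 6472 and 1304 to 1791 genes, and for the interaction 187 to 410, 2184 to 2541 and 160 to 295. The 187 and 160 genes were those without replicate 1 of DHT with JQ-1. Androgen-induced targets higher with DHT numbered 23 to 26, an alternative added after seeing the data. So was leaving out genes with exons on the other strand of another gene, which gave 1267, 1546 and 195 genes in both fits. Replicate numbers did not pair the samples (mean correlation of same-numbered samples 0.0279 in counts and -0.0228 in FPKM with JQ-1). With the replicate number as a block, 2123 genes in counts, 5613 in FPKM and 1755 in both were called with JQ-1, 1692, 6167 and 1545 without it, and 282, 2567 and 249 for the interaction. Reads on genes as low as 982130 per sample limit the tests of low genes.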
